A study of Homo sapiens with 17 samples.

Results

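RNA captured with an antibody against double-stranded RNA was compared gene by gene between H23 and H1437, both established human non-small cell lung carcinoma (NSCLC) cell lines. The comparison covered 38 of the 99 rows of the deposited mitochondrial annotation. These were all 37 gene rows and the row of the displacement loop (D-loop), the control region of mitochondrial DNA. The other rows repeat the same intervals as coding sequences, transcripts and exons. Of the 17 libraries in the series, 6 were compared, replicates 1 to 3 of each line. One more library of each line (Rep 4) served only as a check. The cells carried no treatment and no genetic change in the labels. The labels give no more about either line, and since only mitochondrial rows were counted, no nuclear marker was at hand to check a library against its line. In this RIP-seq design the J2 antibody pulled dsRNA from whole-cell lysates, the RNA was polyadenylated in vitro, and PCR-amplified cDNA was read on a nanopore device. The study describes replicates 1 to 3 as independent experiments.

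Human mitochondrial DNA is a small circle transcribed from both strands into long precursors that cover nearly the whole molecule. The tRNA genes lie between most of the rRNA and protein-coding genes, and their excision releases the mature RNAs. Nearly all protein-coding genes, both rRNA genes and most tRNA genes are read in one direction; ND6 and a group of tRNA genes are read in the other. The strand opposite most genes yields RNA that is normally degraded, and where it persists it can pair with the coding transcripts as mitochondrial dsRNA (mtdsRNA). Outside mitochondria such dsRNA is known as a ligand of the innate immune sensor MDA5.

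The libraries differed in depth and in how many reads mapped to the mitochondrial genome. H23 libraries held 122304 to 601633 total reads, and H1437 libraries 527131 to 6295486. The mapped percentage was 11.0, 17.0 and 24.4 in H23 and 3.03, 4.77 and 6.63 in H1437, with no overlap. In its text the study attaches the averages of these percentages to the lines the other way round, so in one of the sources the names of H23 and H1437 appear exchanged. Elsewhere the study reports the highest mtdsRNA signal in H23, and aligned reads significantly enriched there over H1437 and PC9. That is the direction of the names in the deposited tables. By contrast, the study's grouping of lines from public RNA-seq data put H23 in the intermediate group. It took H1437 to represent the high group, partly by J2 immunofluorescence. Which source is right was not tested. The names in the deposited tables were followed here, and every direction below rests on them. A total of 8128 to 58076 counts fell on the gene rows in H23, and 17335 to 150335 in H1437. Those counts equalled 60.3%, 40.2% and 40.2% of mapped reads in H23 and 78.7%, 69.0% and 68.8% in H1437, with no overlap. H1437 replicate 1, the deepest library, stood apart: 18 of its 22 tRNA gene rows held no count, although its gene rows held the most counts of all. H23 replicate 1, the shallowest, had 3 tRNA gene rows at 0. All results below that involve tRNA genes rest partly on these libraries, so several are also given without H1437 replicate 1. One count was worth 8.18 counts per 1000000 total reads (CPM) in H23 replicate 1 and 0.159 CPM in H1437 replicate 1.

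Levels are given in CPM of all reads, mapped or not, a share of everything sequenced from the immunoprecipitate, unless another scale is named. On this scale every protein-coding gene was higher in each H23 library than in each H1437 library, 13 of 13. Over all 38 rows this held for 18, or 47.4%, and the reverse held for 0, or 0%. With 3 libraries against 3, the smallest p-value that a two-sided exact permutation test can give is 0.1, so none of these rows can pass 0.05 alone. The fold of the mean levels ranged from 7.66 for COX2 to 18.6 for ND1, with a median of 12.5. The gap between the lowest H23 and the highest H1437 library was narrower, from 1.47-fold for ND6 to 8.47-fold for ND3.

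The 7 protein-coding genes of complex I, the NADH dehydrogenase that passes electrons into the respiratory chain, were 13.0-fold higher in H23 when their counts were summed. The sums were 6009.6, 9217 and 18895 in H23 and 470.7, 1594 and 560.7 in H1437. Even the lowest H23 library was 3.77-fold above the highest H1437 library. ND1 and ND2 (positions 3307 to 4262 and 4470 to 5511 of the mitochondrial reference sequence, plus strand), which encode core subunits of the membrane arm of complex I, differed the most. ND1 stood at 1104, 1105 and 2860.4 in H23 and at 55.4, 151.8 and 64.9 in H1437. ND2 stood at 1243, 947 and 2337 in H23 and at 49.4, 140.4 and 75.2 in H1437. For both genes the H1437 libraries formed a low group, and replicate 3 was the high library in H23.

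ND3 (10059 to 10404), another membrane subunit, was the most even gene across H23 libraries after ND4L. It read 613, 434 and 445.5 in H23 and 50.5, 51.2 and 26.6 in H1437. ND4L (10470 to 10766), the smallest complex I subunit encoded in mitochondria, read 286, 269 and 358 in H23 and 49.1, 51.2 and 14.8 in H1437. Both genes kept a clear gap, with each H23 value over 5 times each H1437 value. ND4 (10760 to 12137), which overlaps ND4L by 7 bases, stood at 1529, 3683 and 4796 against 164, 369.9 and 198. Reads in the shared bases can count for either gene of the pair.

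ND5 and ND6 lie side by side on opposite strands and had the most uneven libraries among the protein-coding genes. ND5 (12337 to 14148, plus strand) read 1022, 2305 and 6752 in H23 and 89.1, 685 and 156 in H1437. ND6 (14149 to 14673), the only protein-coding gene on the minus strand, read 213, 472 and 1347 in H23 and 13.0, 144 and 25.1 in H1437. In both genes H23 replicate 3 was highest and H1437 replicate 2 came close to H23 replicate 1, with a gap of 1.49-fold for ND5 and 1.47-fold for ND6. For ND6 the fold of the means was 11.1, and 35.5 without H1437 replicate 2. The counts do not separate the strand of the reads, so a count on ND6 may come from either strand.

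CYTB (14747 to 15887), which encodes the cytochrome b subunit of complex III, was 14.0-fold higher in the mean. Its levels were 1104, 2241 and 4398 in H23 and 163, 292 and 98.8 in H1437. The ranges were 3.78-fold apart.

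The cytochrome oxidase genes of complex IV, the terminal oxidase that passes electrons to oxygen, showed the smallest fold among the complexes, 8.28 for their summed counts. COX1 (5904 to 7445), the catalytic subunit, read 1398, 2314 and 4728 in H23 and 204, 723 and 158 in H1437. COX2 (7586 to 8269) read 2706, 1496 and 2845 in H23 and 264, 415.5 and 240.5 in H1437. COX3 (9207 to 9990) read 556, 1359.6 and 1385 in H23 and 81.3, 138.5 and 44.3 in H1437. COX2 was more even within H1437 than COX1, and its order among H23 libraries was different, with replicate 2 lowest.

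ATP6 and ATP8 encode membrane subunits of ATP synthase, complex V, and share 46 bases. ATP6 (8527 to 9207) stood at 360, 607 and 871 in H23 and at 25.9, 56.9 and 29.5 in H1437, a 16.4-fold difference of the means. ATP8 (8366 to 8572) was the lowest protein-coding gene by level per kilobase in both lines and was left out of the model below by its low counts. It had 4, 12 and 16 counts in H23 and 3, 2 and 1 in H1437, or 32.7, 19.9 and 27.0 CPM against 0.477, 3.79 and 1.48 CPM. The ATP8 libraries did not overlap either, but a value built on 1 to 3 counts has a wide counting error.

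**Figure D1:**
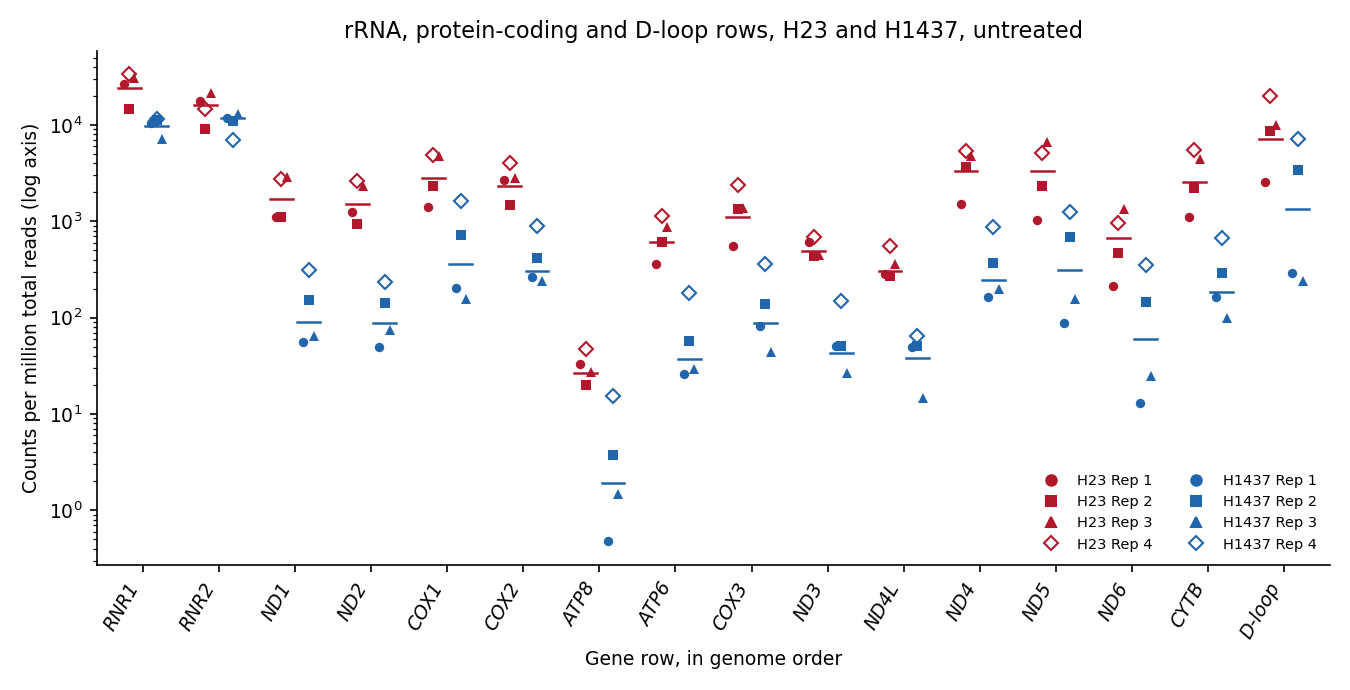
CPM of total reads (log axis) of the rRNA, protein-coding and D-loop rows in genome order. Filled points are replicates 1 to 3, open diamonds Rep 4, short lines the mean of replicates 1 to 3; red is H23 and blue H1437. All 13 protein-coding genes show the filled red points above the filled blue points, whereas RNR2 and the D-loop overlap.

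The rRNA genes stood closer between the lines, and their direction depended on the denominator. RNR1 (648 to 1601), the 12S rRNA of the small mitoribosomal subunit, read 26884, 14677 and 30838 in H23 and 10634, 11316 and 7194 in H1437. The H23 libraries were all above, by 1.30-fold between the nearest libraries and 2.48-fold in the mean. RNR2 (1671 to 3229), the 16S rRNA of the large subunit, read 17645, 9127 and 21329 in H23 and 11854, 10937 and 13025 in H1437. These ranges overlapped, with H23 replicate 2 below all of H1437, and the mean fold was 1.34. Summed, the rRNA genes were 1.85-fold higher in H23 in CPM and at 0.501 of the H1437 level per 1000000 mapped reads (two-sided exact permutation p = 0.1 and p = 0.2).

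The balance of RNR1 to RNR2 also differed. H23 had 1.52, 1.61 and 1.45 RNR1 counts for each RNR2 count, and H1437 had 0.897, 1.03 and 0.552. The lines did not overlap (exact permutation p = 0.1), but the Rep 4 libraries read 2.28 in H23 and 1.62 in H1437, so that with them the lines overlapped (exact permutation p = 0.114).

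The edgeR quasi-likelihood model, fitted per total reads to the 9 untreated libraries of H23, H1437 and a further line, PC9, called 0 of the 36 rows that passed the filter on low counts, or 0%, in either direction at a Benjamini-Hochberg adjusted p under 0.05. At an unadjusted p under 0.05 there were 9, and no adjusted p was below 0.143. The log2 fold change was above 0 in 29 of the 36 rows, with a median of 2.15. The largest among the protein-coding genes were ND1 at 4.22 (SE 1.48), ND2 at 4.10 (SE 1.45) and ATP6 at 4.03 (SE 1.37), each with an edgeR adjusted p of 0.143. CYTB was at 3.80, ND4 at 3.77, COX3 at 3.64 and ND3 at 3.54. ND6 was at 3.48, ND5 at 3.44, ND4L at 2.98, COX1 at 2.96 and COX2 at 2.94. RNR1 was at 1.31 (SE 0.58) and RNR2 at 0.43 (SE 0.56), with edgeR adjusted p of 0.184 and 0.724.

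This count depended on the rows and libraries that set the spread. PC9 replicate 1 resembled H1437 replicate 1, with 20 of 22 tRNA gene rows at 0 but only 5 tRNA rows at 0 in the second count of the same intervals described below. Whether these 2 libraries were counted in another way was not tested. Without PC9 replicate 1 edgeR still called 0 rows, with a smallest adjusted p of 0.0962 and 13 rows at an unadjusted p under 0.05. DESeq2 with the same totals called 7 of 36 rows, ND1, ND2, ATP6, COX3, ND3, ND4 and CYTB, all higher in H23. With only the 6 libraries of H23 and H1437, edgeR called 9 of 35 rows, those 7 with RNR1 and COX2. With the tRNA genes left out, edgeR called 14 of 15 rows, or 93.3%, all higher in H23. These were RNR1, the D-loop row and the 12 protein-coding genes tested, so RNR2 alone was not called. That count fell to 0 without H1437 replicate 1, with a smallest edgeR adjusted p of 0.064, and to 0 without H1437 replicate 3, at 0.0722; with H23 replicate 3 left out it was 7. Without PC9 replicate 1 it was 13, RNR1 being lost.

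As a class, the tRNA genes overlapped between the lines. Their summed level was 9763, 27281 and 12688 in H23 and 182, 7409.9 and 24246 in H1437 (two-sided exact permutation p = 0.5). H1437 replicate 1 was far below all others and H1437 replicate 3 above H23 replicates 1 and 3. The mean fold of 1.56 moved to 1.05 without H1437 replicate 1 and to 4.37 without H1437 replicate 3. Per 1000000 mapped reads the mean was lower in H23, at 0.571 of the H1437 level. Of the 22 tRNA genes 14 had a higher mean in H23, and 4 had every H23 library above every H1437 library, TRNQ, TRNL1, TRNA and TRNY. Among all 38 rows 18, or 47.4%, were above in this way.

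TRNQ, the tRNA for glutamine (4329 to 4400, minus strand), was the furthest apart. It read 2183, 1586 and 1335 in H23 and 0, 151.8 and 54.6 in H1437. The lowest H23 library was 8.80-fold above the highest H1437 library. TRNQ overlaps TRNI, the tRNA for isoleucine on the opposite strand, by 3 bases. TRNI itself overlapped between the lines, at 32.7, 187.8 and 91.1 against 0, 36.0 and 78.2. A count of 0 in H1437 replicate 1 still allows a level of up to 0.477 CPM, a limit that covers counting error only.

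The rest of the 5 tRNA genes with the highest fitted folds lay between RNR2 and COX1. TRNA and TRNY, for alanine and tyrosine, sit in the minus-strand tRNA cluster between ND2 and COX1. TRNA read 507, 874 and 208 in H23 and 0, 81.6 and 184 in H1437. TRNY read 466, 765 and 305 in H23 and 0, 94.8 and 168 in H1437. TRNL1, a leucine tRNA between RNR2 and ND1 (3230 to 3304, plus strand), read 311, 427 and 214 in H23 and 0, 37.9 and 125 in H1437. TRNW, for tryptophan, read 65.4, 951 and 979 against 0, 197 and 202, so H23 replicate 1 fell below H1437 replicates 2 and 3. In the same stretch TRNI, TRNM, TRNN and TRNC also overlapped, with mean folds of 2.73, 1.14, 1.67 and 2.07. The fitted log2 fold changes were 4.63 (SE 2.56) for TRNQ, 2.58 for TRNA, 2.55 for TRNL1 and TRNY and 2.32 for TRNW, and none passed the edgeR test, with adjusted p from 0.259 to 0.612. Without H1437 replicate 1 they were 4.04 for TRNQ, 1.99 for TRNA, 1.95 for TRNL1, 1.96 for TRNY and 1.74 for TRNW.

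The lowest folds among the tRNA genes rested mainly on 1 library, H1437 replicate 3. TRNH, for histidine, read 164, 2244 and 133 in H23 and 0, 299.7 and 11139 in H1437, with a fitted log2 fold change of -2.17 (SE 2.79). Only H1437 replicate 3 was above all of H23, and without it the fitted value of TRNH was 2.50. With H1437 replicate 1 left out instead, the value was -2.75. TRNK, for lysine, read 57.2, 709.7 and 42.2 against 0, 118 and 1092, and TRNS1, a serine tRNA, read 155, 879 and 128 against 0, 163 and 1490.2. TRNK and TRNS1 also turned from -0.58 and -0.51 to 2.21 and 2.26 without H1437 replicate 3. H1437 replicate 1 held no count for these 3 genes, so without replicate 3 only H1437 replicate 2 held any. None of the lowest 5 passed the edgeR test, with adjusted p from 0.724 to 0.927.

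TRNG, TRNL2 and TRNR, for glycine, leucine and arginine, had the fewest counts. TRNG had 0, 27 and 6 counts in H23 and 0, 5 and 87 in H1437. TRNL2 had 0, 51 and 11 counts in H23 and 0, 12 and 147 in H1437. TRNR had 0, 18 and 2 counts against 0, 3 and 39 and did not reach the filter of 10 counts in 3 libraries. In each of them replicate 1 of both lines held no count, which in H23 allows up to 24.5 CPM. The fitted log2 fold changes were -1.26 (SE 2.47) for TRNG and -1.17 (SE 2.41) for TRNL2, and TRNL2 turned to 1.66 without H1437 replicate 3. Without H1437 replicate 1 TRNG was at -1.81 and TRNL2 at -1.74.

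**Figure D2:**
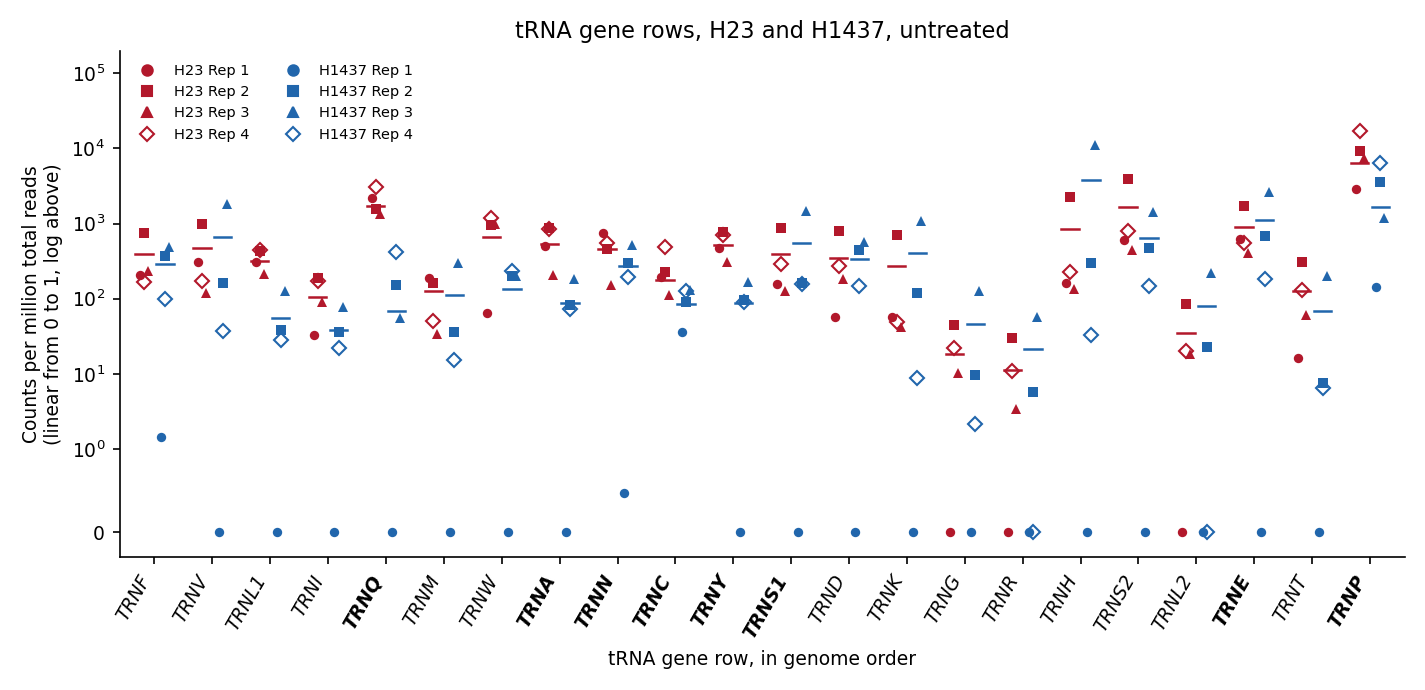
CPM of total reads for the 22 tRNA gene rows in genome order, on an axis that is linear from 0 to 1 and logarithmic above. Filled points are replicates 1 to 3, open diamonds Rep 4, short lines the mean of replicates 1 to 3; names in bold mark the minus strand. H1437 replicate 1 lies at 0 for 18 of the 22 genes, and H1437 replicate 3 is the highest of the filled points for TRNH, at 11139.

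In CPM the genes of each annotated strand were higher in every H23 library. The 9 genes on the minus strand summed to 7956, 16123 and 11463 in H23 and 193.9, 5335 and 6400.4 in H1437, 2.98-fold higher in the mean, with overlap once Rep 4 was added. The 28 genes on the plus strand were 2.18-fold higher, without overlap (two-sided exact permutation p = 0.1 for each strand). As shares of gene-row counts the strands overlapped between the lines. The 9 genes on the minus strand took 12.0%, 23.6% and 11.7% of gene-row counts in H23 and 0.812%, 16.2% and 14.0% in H1437 (two-sided exact permutation p = 0.6). The share was 1.52-fold higher in the H23 mean, and 1.04-fold without H1437 replicate 1. Its most abundant member in all libraries but H1437 replicate 3 was TRNP, the tRNA for proline next to the D-loop (15956 to 16023). TRNP read 2862, 9152 and 7477 in H23 and 145, 3625 and 1170.0 in H1437, and H23 replicate 1 lay below H1437 replicate 2. Without TRNP the minus-strand share was 7.67%, 10.2% and 4.07% in H23 and 0.206%, 5.20% and 11.5% in H1437. Among the tRNA genes, 3 of the 8 on the minus strand and 1 of the 14 on the plus strand had libraries that did not overlap. Over all 38 rows 18, or 47.4%, did not overlap, a larger share than in either tRNA group.

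The D-loop row (16024 to 17145, annotated on the minus strand) runs 576 bases past the end of the 16569-base reference and so covers 546 bases of it. Its level was 2559, 8749.5 and 10036 in H23 and 289, 3455 and 242 in H1437. The mean was 5.36-fold higher in H23, but H1437 replicate 2 was above H23 replicate 1 (two-sided exact permutation p = 0.2). The fold was 26.8 without H1437 replicate 2 and 3.80 without H1437 replicate 3. Its mean was 2.20-fold higher as a share of gene-row counts and 1.35-fold higher per 1000000 mapped reads, with overlap on each, and on the relative scale of DESeq2 its log2 fold change was -0.52. The D-loop row and its neighbour TRNP were low in the same H1437 libraries, replicates 1 and 3. The fitted log2 fold change of the D-loop was 2.42 (SE 1.41, edgeR adjusted p = 0.281).

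Along the genome, neighbouring genes of different classes had different folds. The segment from TRNF to TRNL1, which holds both rRNA genes, was 1.83-fold higher in H23, and the next, from ND1 to ND2, was 12.9-fold higher. The segments from TRNW to TRNY and from COX1 to COX3 were 3.50-fold and 3.79-fold higher. From TRNG to TRNL2 the lines overlapped, at 3205, 10721 and 6213 in H23 and 264, 1288 and 13224 in H1437. In that last segment the 3 protein-coding genes were 12.7-fold higher in H23 with no overlap, while the 5 tRNA genes beside them were at 0.560 of the H1437 mean, with overlap. From COX1 to COX3 the 5 protein-coding genes were 8.67-fold higher and the 3 tRNA genes at 0.780. Both tRNA values rested on H1437 replicate 3, and without it they were 6.31 and 2.77. In H1437 replicate 1 both tRNA sums were 0. From ND1 to ND2 the summed tRNA genes were 8.83-fold higher in H23 with no overlap, beside 17.9-fold for ND1 and ND2. Most of that tRNA sum was TRNQ, with a mean of 1701 of 1932 in H23. TRNI and TRNM overlapped between the lines, with mean folds of 2.73 and 1.14. From ND5 to TRNP the tRNA genes were 2.66-fold higher with overlap, beside 11.9-fold for the protein-coding genes. Across the 13 protein-coding genes, the fold had a Spearman rank correlation of -0.23 with position and 0.01 with length. The genes share libraries, so this is a description.

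**Figure D3:**
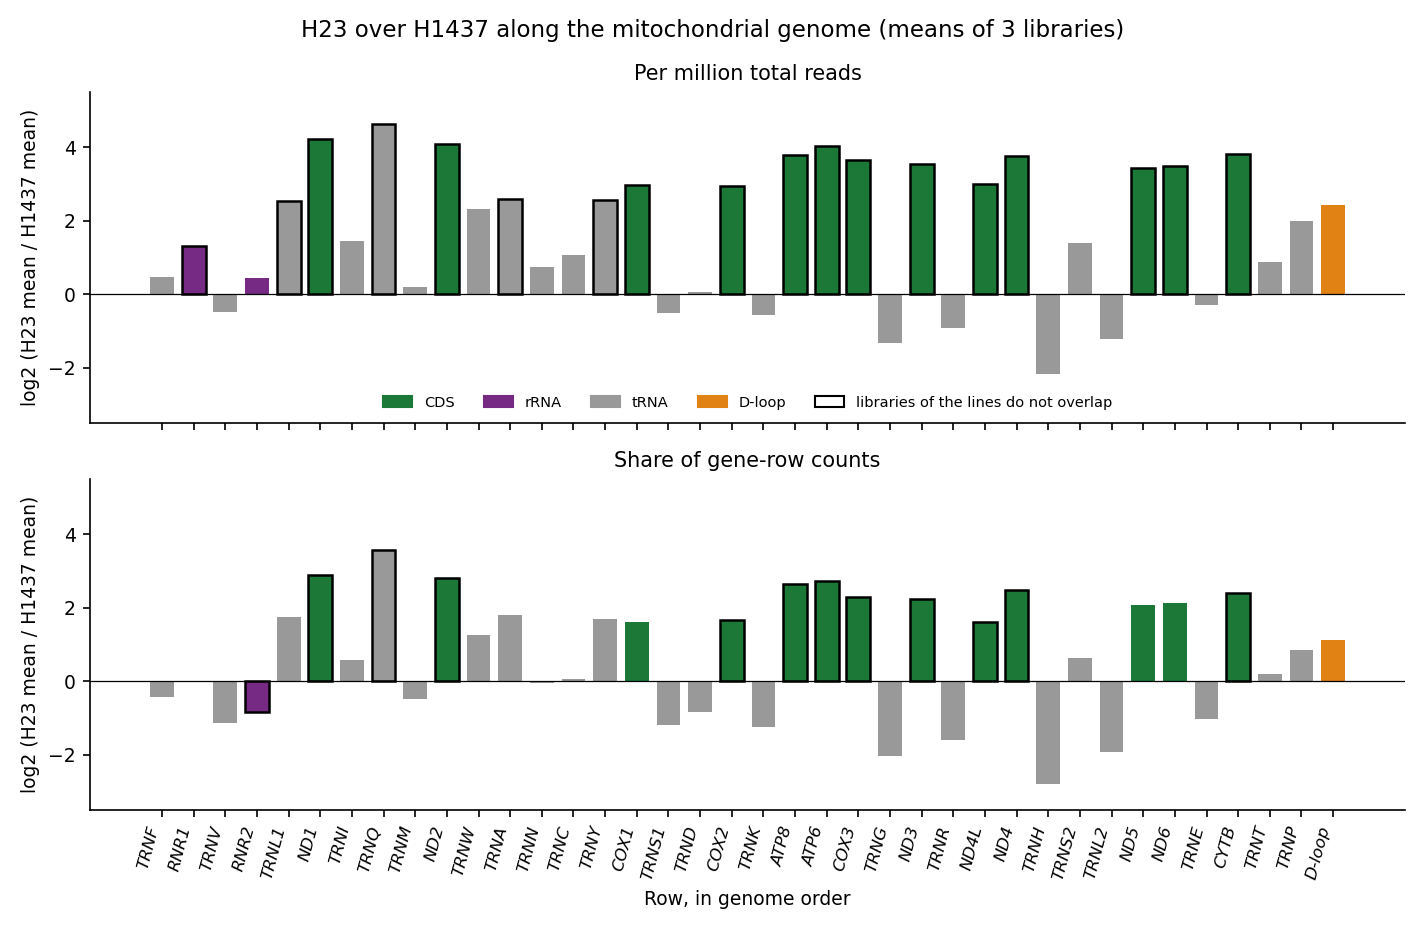
Log2 of the H23 mean over the H1437 mean for the 38 rows in genome order, in CPM (upper panel) and as a share of gene-row counts (lower panel), with 3 libraries a line. Colours mark the class, and a black outline marks rows whose libraries do not overlap, 18 in the upper panel and 12 in the lower. Protein-coding genes are above 0 in both panels, RNR2 changes side, and tRNA genes lie on both sides.

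A share of gene-row counts asks whether a gene differs relative to the other mitochondrial genes, without the total of the library. On this scale 11 of the 38 rows, or 28.9%, had every H23 library above every H1437 library. These were 10 of the 13 protein-coding genes and TRNQ; COX1, ND5 and ND6 overlapped. One row, RNR2, or 2.63%, had every H23 library below. RNR2 took 26.6%, 13.4% and 21.8% of gene-row counts in H23 and 49.6%, 33.3% and 28.6% in H1437. RNR1 took 40.5%, 21.5% and 31.5% in H23 and 44.5%, 34.4% and 15.8% in H1437, with overlap. So of the 2 rRNA genes only RNR2 had a lower share in every H23 library, and the sum of both overlapped (two-sided exact permutation p = 0.4).

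ND1 showed the widest difference in share among the protein-coding genes, 7.41-fold in the mean. It took 1.66%, 1.62% and 2.92% of gene-row counts in H23 and 0.232%, 0.461% and 0.142% in H1437. ND2 followed at 7.06-fold and ATP6 at 6.69-fold. COX1 took 2.10%, 3.39% and 4.82% in H23 and 0.854%, 2.20% and 0.346% in H1437, so H1437 replicate 2 was just above H23 replicate 1. All 13 protein-coding genes together took 18.3%, 25.2% and 33.8% in H23 and 5.07%, 9.80% and 2.48% in H1437 (two-sided exact permutation p = 0.1). The lowest H23 library was 1.87-fold above the highest H1437 library.

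The balance of protein-coding to rRNA counts leaves out both the library total and the tRNA genes. For each 100 rRNA counts there were 27.3, 72.5 and 63.5 protein-coding counts in H23 and 5.38, 14.5 and 5.60 in H1437. The mean log2 ratio was higher by 2.72 in H23, or 6.61-fold (two-sided exact permutation p = 0.1, adjusted 0.2 over the 6 class and strand tests). On the CDS and rRNA rows, a second count of the same intervals described below, it was 3.18-fold higher with overlap (exact permutation p = 0.2). The Rep 4 libraries read 74.0 in H23 and 37.7 in H1437, so that H1437 Rep 4 lay above H23 replicate 1 (exact permutation p = 0.0571 with 4 libraries a line). Over the same 6 tests the adjusted p was 0.2 for the protein-coding and rRNA sums, 0.3 for the D-loop row and 0.6 for the tRNA sum and the minus-strand share.

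The edgeR model on the same question, with TMM factors on the gene-row counts, called 0 of 36 rows, or 0%. It gave 9 rows an unadjusted p under 0.05 and a smallest adjusted p of 0.0515, and DESeq2 called 0 as well, with 4 rows under 0.05 unadjusted. RNR2 was at -1.30 (SE 0.34) and ND1 at 2.60 (SE 0.64) on the log2 scale, both with an edgeR adjusted p of 0.0515. The median log2 fold change over all rows was 0.70 with TMM factors, 0.99 with plain shares and -1.23 with DESeq2, so the zero point of this scale was not settled by the data. With DESeq2 3 of the 12 protein-coding genes tested, COX1, COX2 and ND4L, lay below 0. With TMM factors or plain shares on the gene rows of all 9 libraries none did. With TMM factors ND4L lay below 0 once H1437 replicate 2 or H1437 replicate 3 was left out. On the CDS, rRNA and tRNA rows COX3, ND4L and CYTB lay below 0, and the median log2 fold change was -0.66. With the tRNA genes left out, edgeR called ND1, ND2, ATP6 and CYTB higher, 26.7% of 15 rows, and RNR2 lower, 6.67%. Leaving out H1437 replicate 1, H1437 replicate 3 or H23 replicate 3 as well reduced this to 0, and each of the other replicates to 1 or 2. In these fits without the tRNA genes 0 to 4 protein-coding genes lay below 0, most often COX1 and COX2. Without PC9 replicate 1 RNR2 alone was called, and COX1, COX2 and ND4L lay below 0.

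**Figure D4:**
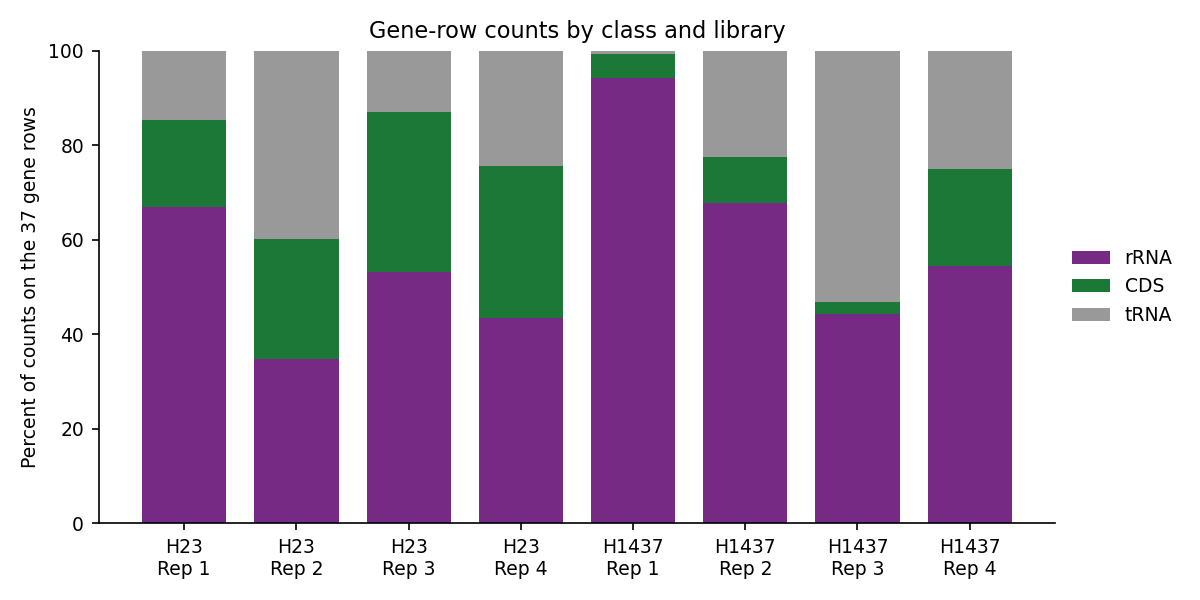
Percent of the counts on the 37 gene rows that fell on rRNA, protein-coding (CDS) and tRNA genes, 1 bar a library. The protein-coding share is 18.3% to 33.8% in H23 replicates 1 to 3 and 2.48% to 9.80% in H1437 replicates 1 to 3, and H1437 Rep 4 reaches 20.5%. The tRNA share varies within each line, from 0.764% to 53.2% in H1437.

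Per 1000000 mapped reads, the denominator that leaves out the larger mapped percentage of H23, the protein-coding gene rows kept their direction in replicates 1 to 3. Their summed level was 110369, 101507 and 136033 in H23 and 39861, 67627 and 17100.5 in H1437, 2.79-fold higher. With Rep 4 this sum overlapped, at 117935 in H23 Rep 4 and 131483 in H1437 Rep 4 (exact permutation p = 0.114). The CDS rows, the second count described below, were not put on this scale. On this scale 10 rows had every H23 library above, 26.3% of all 38, of which 9 were protein-coding genes and the other TRNQ. COX1, ND4L, ND5 and ND6 overlapped. RNR2 was the only row, 2.63%, with every H23 library below. Gene-row counts as a whole were a smaller percentage of mapped reads in every H23 library than in every H1437 library. The median edgeR log2 fold change over all rows was 0.30 with mapped reads as library size and 2.15 with total reads.

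Within each line, the order of the rRNA and protein-coding genes by level per kilobase was much the same. RNR1 was highest in both lines, followed by RNR2 and COX2, and ATP8 was lowest. RNR1 averaged 25296 CPM per kilobase in H23 and 10183 in H1437, and COX2 averaged 3434 and 448.5. Neighbours in this order did not overlap for RNR2 and COX2 and for ATP6 and ATP8 in both lines, and for RNR1 and RNR2 in H23. All other neighbours overlapped. ND1 ranked 8 in H23 and 12 in H1437, and COX1 ranked 7 and 4. Across the 15 rRNA and protein-coding genes the log2 counts of any H23 and any H1437 library correlated with r from 0.89 to 0.97, against 0.91 to 0.98 within H23 and 0.95 to 0.98 within H1437. For the 22 tRNA genes the same values were 0.25 to 0.88 between the lines, 0.82 to 0.88 within H23 and 0.05 to 0.63 within H1437. Within H1437 the pairs with replicate 1 gave 0.45 and 0.05, and replicates 2 and 3 gave 0.63. The 0.25 was between H23 replicate 3 and H1437 replicate 3. These values are across genes, which are not independent replicates.

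The deposited table also counts each gene's interval as a CDS, rRNA or tRNA row, and these rows held more reads than the gene rows. The methods count reads that overlap several features in one passage and exclude overlapping reads in another, so what the added reads are is not given in the sources used here. They made up 34.8%, 60.3% and 39.5% of protein-coding row counts in H23 and 43.8%, 67.3% and 92.5% in H1437. For the rRNA rows they made up 5.75%, 7.63% and 7.27% in H23 and 17.8%, 13.6% and 10.4% in H1437, all H23 libraries below all H1437 libraries (two-sided exact permutation p = 0.1). RNR2 carried most of this in H1437 replicate 1, with 104746 counts on its rRNA row and 74626 on its gene row.

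On these rows 18 of 37 intervals, or 48.6%, had every H23 library above every H1437 library and 0 below. Of the 13 protein-coding genes 11 did so. ND1 and CYTB, 2 of the genes that were well apart on the gene rows, overlapped here. CYTB had 474, 6611 and 3614 counts in H23 and 1175, 1439 and 9068 in H1437 on its CDS row, where H1437 replicate 3 had only 67 on the gene row. The mean fold of CYTB in CPM was then 1.29 in place of 14.0. ND1 remained 11.3-fold higher in the mean. TRNI, TRNW and TRNG joined TRNQ, TRNA and TRNY among the tRNA genes without overlap, and TRNL1 left them. TRNL1 read 2502, 13405 and 10724 CPM in H23 and 4659, 4826 and 2259 in H1437 on its tRNA row, so H1437 replicates 1 and 2 were above H23 replicate 1. In H1437 replicate 1 this row held 29331 counts and the gene row 0. In H1437 replicate 1 a single tRNA stayed at 0 on the tRNA rows, against 18 on the gene rows.

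**Figure D5:**
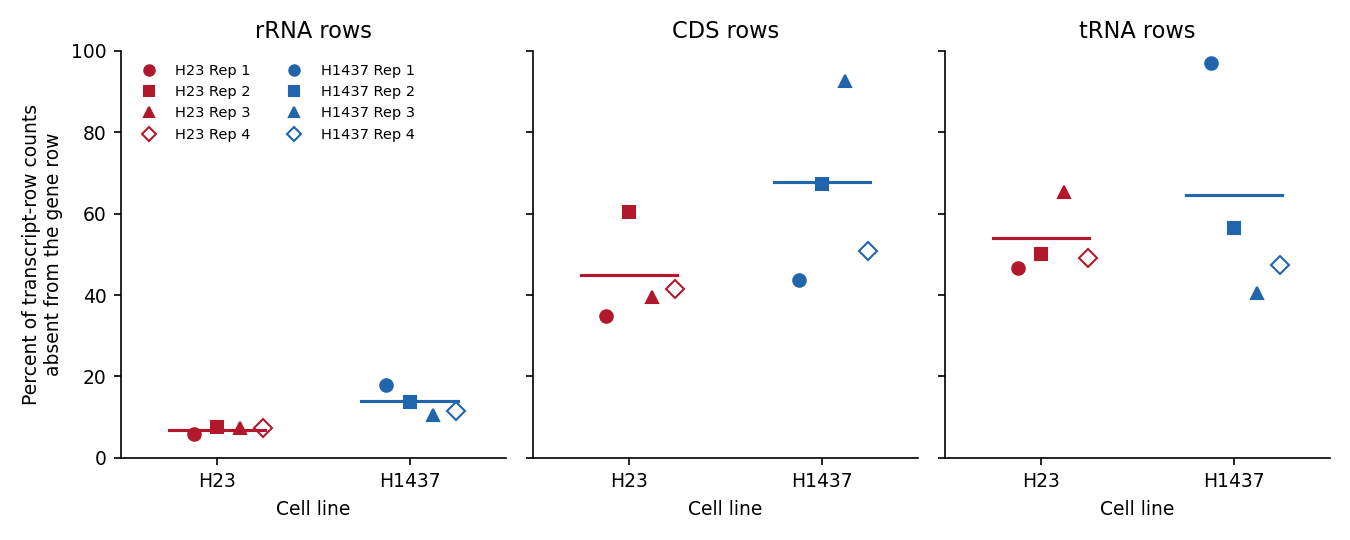
Percent of the counts on rRNA, CDS and tRNA rows that were absent from the gene row of the same interval, summed by class, 1 point a library; lines are means of replicates 1 to 3, open diamonds Rep 4. H23 lies between 5.75% and 7.63% for rRNA and H1437 between 10.4% and 17.8%, while the CDS and tRNA rows overlap, with H1437 replicate 3 at 92.5% for CDS and H1437 replicate 1 at 96.9% for tRNA.

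The Rep 4 libraries carry the same labels as replicates 1 to 3, and the labels do not say which experiment of the series they belong to. H23 Rep 4 mapped at 30.5% and H1437 Rep 4 at 5.30%. Protein-coding genes stood at 35999 CPM in H23 Rep 4 and at 6972 in H1437 Rep 4, above every replicate 1 to 3 of the same line. The fold between the Rep 4 libraries was 8.89 for ND1, 11.1 for ND2, 6.26 for ATP6, 3.02 for COX1 and 2.71 for ND6. With 4 libraries a line, 15 of 38 rows, or 39.5%, had every H23 library above, and 0 below. These were 10 of the 13 protein-coding genes, RNR1 and the same 4 tRNA genes. COX1, ND5 and ND6 overlapped, because H1437 Rep 4 exceeded H23 replicate 1. The summed protein-coding level was 7.86-fold higher and the summed rRNA level 2.03-fold higher (two-sided exact permutation p = 0.0286 for each, the smallest that 4 against 4 can give). These p-values were not adjusted over the 6 class and strand tests. As a share of gene-row counts, only ND1, ND2, ATP6, ND3, ND4L and TRNQ stayed apart, 15.8% of the rows, and RNR2 overlapped. Per 1000000 mapped reads, only ND1 and ND2 did.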

How the data were processed

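The deposited counts are raw read counts per annotation row, made by the authors with featureCounts from nanopore reads mapped to the human mitochondrial genome with minimap2 2.17-r941; a second deposited table holds the counts of mapped and total reads from SAMtools 1.10. Reads were not counted by molecular identifier, so intervals and limits cover counting error only. The members and lists were chosen with earlier results of these data known. All 37 symbols matched RefSeq by gene ID (GRCh38.p14).

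Each row was divided by total reads (counts per 1000000, CPM), by the summed gene rows, or by mapped reads. Rows with at least 10 counts in at least 3 of the 9 untreated libraries entered edgeR 4.0.16 quasi-likelihood fits (R 4.3.3), with total reads as library size and no factors, or gene-row sums with TMM. P-values were adjusted by Benjamini-Hochberg over all rows tested. DESeq2 1.42.0 was an alternative. Two-sided exact permutation tests over libraries compared class sums (Python 3.11.15). P-values measure the spread between these libraries. Named genes were both rRNA genes, the D-loop, all 13 protein-coding genes, the 5 tRNA genes with the highest and the 5 with the lowest fold, and tRNA genes under the filter. Simulated counts held 4-fold changes, up or down, with 1 dispersion for every row. The fit per total reads found 190 of 190 changed rows at a dispersion of 0.02 and 0 of 184 at the 2.15 estimated here. Without tRNA genes, at 0.67, it found 26 of 192. Of the unchanged rows 11 of 527, 0 of 517 and 1 of 559 were called. The simulated fold is smaller than the 7.66 to 18.6 of the protein-coding genes.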

Additional observations from a re-analysis of the deposited data

How the results depend on the processing

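The count of rows called by edgeR per total reads was 0 of 36. It was 9 of 35 with the 6 libraries of H23 and H1437 and 7 of 36 with DESeq2. With the tRNA genes left out it was 14 of 15. It stayed at 0 without the low-count filter, on the CDS, rRNA and tRNA rows and with Rep 4 added. The same held with mapped reads and with each replicate left out. The alternatives that joined the removal of the tRNA genes with another choice, and the removal of the D-loop row or PC9 replicate 1, were chosen after seeing the data: without the tRNA genes the count was 14 with the 6 libraries and 0 to 13 with a replicate left out, and relative to other mitochondrial genes it was 0 to 2 with a replicate left out. The relative count, 0, was 5 with the tRNA genes left out and 0 to 6 with each replicate left out, the 6 without H23 replicate 1. The replicate numbers showed no steady pairing: the deviations of same-numbered libraries from their line means correlated at 0.17, 0.55 and -0.78 over 34 genes. For libraries of different number the values ran from -0.82 to 0.86, the highest for H23 replicate 2 with H1437 replicate 3. Whether libraries pair under other numbers was not tested. The replicate block gave 0 calls per total reads and 4 relative calls, and, without the tRNA genes, 13 and 5; under it TRNH, TRNK and TRNS1 turned positive, at 3.43, 3.05 and 3.47. The rows without overlap numbered 18 by total reads and 11 by mapped reads, and on shares 12, or 6 with Rep 4. With Rep 4 the protein-coding fold of 11.2 was 7.86 and the rRNA fold of 1.85 was 2.03. Each had an exact permutation p of 0.0286, not adjusted over the 6 class and strand tests. On the CDS and rRNA rows they were 4.31 and, with overlap, 1.71 (exact permutation p = 0.1 and p = 0.2), and the protein-coding fold was 17.8 without H1437 replicate 2. With mapped reads the rRNA fold became 0.501, the tRNA fold 0.571, and the fitted values of RNR1 and RNR2 -0.61 and -1.44 (log2). On the tRNA rows TRNG, TRNL2 and TRNS1 turned to 1.56, 0.12 and 0.23. With a replicate left out TRNH ranged from -4.68 to 2.50, TRNL2 from -2.95 to 1.66, TRNK from -3.02 to 2.21 and TRNS1 from -1.96 to 2.26, each positive only without H1437 replicate 3. The cause of these shifts was not tested. Of the class and count results, 30 of 44 settings and 66 of 76 with a replicate left out were scored as unchanged. Class results were scored by direction and side of 0.05, and counts of rows by the size of the count. With at most 3 libraries a line no exact permutation test can pass 0.05. For the class results only the direction could change there, so this tally is weak evidence of stability. Depth limits TRNG, TRNR, TRNL2 and ATP8 most.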

Other observations

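Reads counted on a CDS, rRNA or tRNA row but not on the gene row came in nearly equal numbers from some neighbouring intervals. TRNE, the tRNA for glutamate, had 353, 5272 and 1004 such reads in H23 and 29, 1306 and 9037 in H1437. CYTB, the next gene downstream on the opposite strand, had 339, 5263 and 1008 in H23 and 148, 1285 and 9001 in H1437. H1437 replicate 1 was the exception. In that library RNR2 and TRNL1, which adjoin, had 30120 and 29331 such reads, while ND1 on the other side of TRNL1 had 1174. H23 replicates 2 and 3 differed, with 7808 and 6228 such reads on TRNL1, 7254 and 5535 on ND1 and 1022 and 2049 on RNR2. In H23 replicate 1 RNR2, TRNL1 and ND1 had 292, 268 and 75. In H1437 they had 1789, 2524 and 938 in replicate 2 and 1533, 1446 and 112 in replicate 3. What these reads are was not tested.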
